A study of Mus musculus with 4 samples.

Results

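The 10 genes described here, Pcsk1, Pcsk2, Cpe, Scg5, Pcsk1n, Chga, Chgb, Scg2, Scg3 and Slc30a8, were taken by symbol from the 32227 genes listed for islet cells of mice carrying a Myt3 mutation and of controls. They were chosen by function, and all 10 were present and passed the filter on low counts. The labels name 4 libraries of normal-diet adult mice, profiled with PIPseq, whereas the study's methods describe inDrop-Seq after 5 months of high-fat diet. By those methods each sample pooled islets of 2 males and 2 females, homozygous for a 12-bp insertion in Myt3 (Myt3IM/IM) or WT, the insertion being made to separate an upstream reading frame from the Myt3 reading frame. The expression counts of mutant 1, mutant 2 and control 2 were analysed, and those of control 1 were not analysed here. With 1 control library no test between genotypes was possible, and control 2 also carries another batch label than both mutant libraries, so batch and genotype cannot be told apart.

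Peptide hormones are made as longer precursors. In the secretory granule, the convertases PC1/3 (Pcsk1) and PC2 (Pcsk2) cut the precursor at pairs of basic residues, and carboxypeptidase E (Cpe) trims the basic residues left behind. In β cells both convertases act on proinsulin, whereas in α cells PC2 releases glucagon from proglucagon. The 7B2 protein (Scg5) is a chaperone of PC2, and proSAAS (Pcsk1n) is an inhibitor of PC1/3. Chromogranins and secretogranins (Chga, Chgb, Scg2, Scg3) are acidic proteins of the granule matrix that take part in sorting cargo and forming granules. ZnT8 (Slc30a8) carries zinc into the granule, where insulin is stored as a zinc hexamer.

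In the RefSeq promoter windows of GRCm38.p6, 250 bases before to 50 bases after each start, 8 of the 10 genes had an entry. The complete cAMP response element, TGACGTCA, which reads the same on both strands, was found in 3 of these 8, Pcsk1, Chgb and Scg2, and in 1.79% of all 32851 windows. Its first 6 letters, TGACGT on either strand, which overlap the complete element by construction, were found in 5 of the 8 (Chga and Scg5 in addition) and in 7.51% of all windows. The motif was picked with the values below known, and a match is only a description of letters. The 100 bases just before the start are shown for the 3 genes with the complete element and for Chga, whose window holds the shorter form. The first 3 and Chga lay on opposite sides in the comparison of libraries, but Scg5, which also holds only the shorter form, lay on the side of the first 3. Pcsk1n and Scg3, whose windows held neither form, lay on that side too, so the sides did not sort by motif. Capitals mark the motif, and each sequence is written 5′ to 3′ on the strand of its gene.
Pcsk1, chr13:75089757-75089856, plus strand: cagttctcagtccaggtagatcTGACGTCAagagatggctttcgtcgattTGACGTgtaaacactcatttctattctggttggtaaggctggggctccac
Chgb, chr2:132781542-132781641, plus strand: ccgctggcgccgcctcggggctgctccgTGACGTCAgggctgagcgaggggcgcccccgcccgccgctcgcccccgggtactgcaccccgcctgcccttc
Scg2, chr1:79440027-79440126, minus strand: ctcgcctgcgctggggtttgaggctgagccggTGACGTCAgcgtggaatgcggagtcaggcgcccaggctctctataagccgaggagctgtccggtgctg
Chga, chr12:102554841-102554940, plus strand: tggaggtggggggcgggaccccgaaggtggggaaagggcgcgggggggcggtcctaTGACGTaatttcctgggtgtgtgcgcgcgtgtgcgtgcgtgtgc
The complete element began 78 bases before the start in Pcsk1, 72 in Chgb and 68 in Scg2. The windows of Pcsk2, Pcsk1n and Scg3 held neither form.

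Of 7376 barcodes, 7263 cells passed the filters. Cells were classed by hormone transcripts alone as β (5931 cells, at least 10% of transcripts from Ins1 and Ins2), α (553, at least 5% Gcg), δ (86, at least 5% Sst) or PP (119, at least 5% Ppy), and the 10 genes played no part in the classing. All 7 α markers were detected in α cells of every library, but also in β cells of every library. Of the 6 PP markers, Ppy and Pyy were highest in PP cells. As a share of all UMIs, Spock1 was higher in δ than in PP cells of every library. Etv1 and Sertm1 in α cells lay near or above their PP-cell levels. Abcc9 was at 0 in PP cells, and Ghsr had 1 UMI in δ cells over the 3 libraries. UMIs, unique molecular identifiers, each stand for 1 captured transcript. The median depth of β cells was 2720 UMIs (mutant 1), 4449 (mutant 2) and 15563 (control 2), and no barcode was shared between libraries. β cells of control 2 were thus deeper, and insulin took 56.9% of their UMIs against 41.1% and 43.7% in the mutant libraries. Hormone transcripts were also counted outside their own class. Insulin in α, δ and PP cells stood at 5.57% to 10.8% of its level in β cells, and Gcg in β cells at 1.39% and 1.496% of its α-cell level in the mutant libraries against 0.0788% in control 2. Myt3 (St18) had log2 ratios of -0.61 and -0.33 to control 2 in β cells, which does not check the labels because the insertion leaves the transcript in place.

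The first question was which endocrine cells carry each gene. Pcsk1 and Slc30a8 had the steepest class patterns. Pcsk1 was high in β cells and near the level of non-endocrine cells in α and PP cells. Slc30a8 was high in β and α cells and low in δ and PP cells. UMIs were summed per library and class into 12 sums and compared by edgeR's quasi-likelihood test with library as a term. Benjamini-Hochberg adjustment ran over 4752 genes, and a gene was called at an adjusted p below 0.05. Levels are TMM-scaled CPM, counts brought to a common library size, TMM being a scaling that discounts the most abundant genes. The choice of scaling mattered, because hormones fill much of each library. The median log2 difference of all genes between β and α cells was 0.21 with TMM, 0.0027 with DESeq2 size factors, -0.59 with CPM of all UMIs and -0.047 with hormone and mitochondrial genes left out of the total. Between β and δ cells it was 0.49, 0.057, -0.97 and -0.14, and between β and PP cells 0.34, -0.021, -0.57 and -0.029. Differences called with TMM are therefore given with the number of these 4 scalings in which they were called.

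β cells were called higher than α cells for 6 of the 10 genes and lower for 1, where 26.3% and 12.3% of all genes were called. Against δ cells 6 were higher and 0 lower (24.7% and 4.73% of all genes), and against PP cells 6 were higher and 0 lower (23.7% and 6.19%). The median over the 10 genes was 0.68 against α, 1.43 against δ and 1.18 against PP cells on the log2 scale. Of all calls between β and α cells, 68.1% were higher in β cells with TMM, 48.4% with DESeq2, 12% with CPM of all UMIs and 44.7% without hormone and mitochondrial genes. The same shares were 83.9%, 50.2%, 3.91% and 36% against δ cells, and 79.3%, 46.2%, 12% and 48.4% against PP cells. Genes of the set that kept their call in all 4 scalings numbered 3 higher and 1 lower against α cells, 3 higher against δ cells and 4 higher against PP cells. The share of all genes that did so was not computed. With CPM of all UMIs, 296, 97 and 210 of 4275 genes were called higher against α, δ and PP cells, and 2174, 2382 and 1535 lower. Of the 10 genes, that scaling called 3 higher and 4 lower against α cells. The counts were 3 and 4 against δ cells, and 4 and 3 against PP cells. Without hormone and mitochondrial genes they were 5 and 3, 6 and 1, and 6 and 1.

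**Figure D1:**
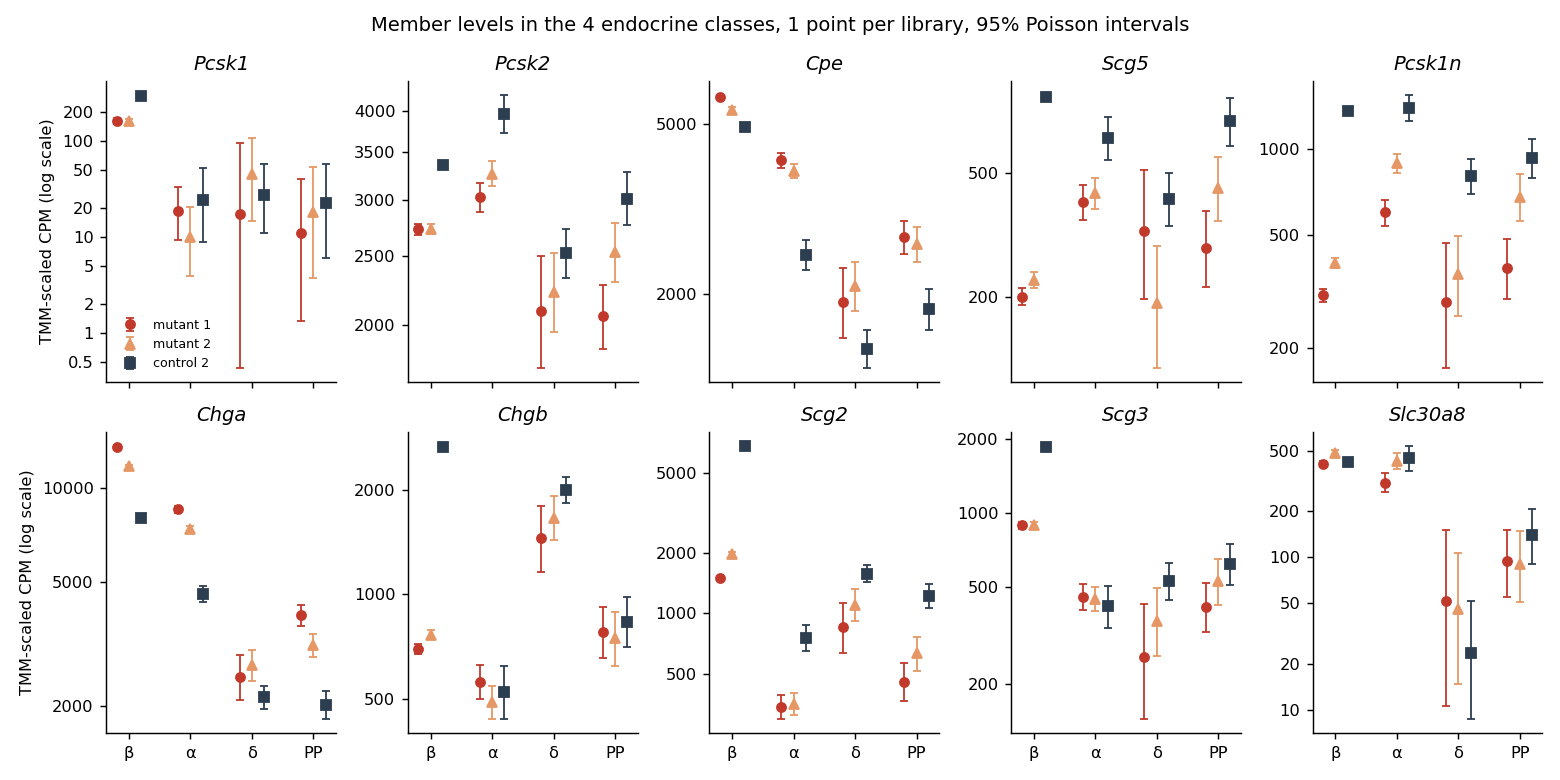
Level of each gene in β, α, δ and PP cells (x axis) as TMM-scaled CPM on a log axis, with 1 point for each of the 3 libraries and 95% Poisson intervals that cover counting error only. Pcsk1 stood at 158.6 to 292 CPM in β cells and at most 45.4 CPM elsewhere, and Slc30a8 was high in β and α cells.

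Pcsk1, the convertase that makes the first cuts in proinsulin, reached 160.1, 158.6 and 292 CPM in β cells of mutant 1, mutant 2 and control 2. In α cells it had 18.7, 9.88 and 24.2 CPM. In δ cells it had 17.1, 45.4 and 27.5 CPM, and in PP cells 11.0, 18.1 and 22.4 CPM. Every β-cell value lay above every other value. The log2 difference was 3.54 (SE 0.28, adjusted p = 9.97e-11) against α cells, 2.87 (SE 0.36, adjusted p = 9.6e-07) against δ cells and 3.56 (SE 0.37, adjusted p = 2.6e-08) against PP cells, by edgeR's quasi-likelihood test with Benjamini-Hochberg adjustment. All 3 calls held in all 4 scalings, with values down to 2.80, 1.47 and 2.70. The levels in α, δ and PP cells rested on 1 to 11 UMIs per sum. After each cell was thinned to 1000 UMIs, a Pcsk1 UMI was seen in 9.42%, 8.92% and 12.7% of β cells. Among α cells the share was 2.31% (95% exact binomial interval 0.852 to 4.95), 1.89% (0.516 to 4.76) and 2.86% (0.0723 to 14.9). Non-endocrine cells (endothelial, stellate or leukocyte markers), which should lack the gene, gave 2.78% (0.0703 to 14.5) in mutant 1, 1.59% (0.0402 to 8.53) in control 2 and 0 of 50 cells in mutant 2, which allows up to 6%. These intervals overlapped, so Pcsk1 in α cells could not be told from background at this depth. Unthinned, the shares were 24.8%, 34.6% and 74.4% in β cells, 3.69%, 3.18% and 17.1% in α cells and 3.64%, 1.92% and 15.9% in non-endocrine cells. As CPM of all UMIs, the Pcsk1 level was 17.7%, 9.60% and 18.3% of that in β cells for α cells and 19.2%, 7.67% and 16.5% for non-endocrine cells. Thinning left out 368 and 158 β cells of the mutant libraries and 0 of control 2, and 38, 8 and 0 α cells.

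Pcsk2, the convertase shared by the islet endocrine cells, was called in none of the 6 class comparisons by edgeR's quasi-likelihood test with TMM. It ranged from 2726 to 3358 CPM in β cells and from 3028 to 3967 CPM in α cells. In δ cells it ranged from 2091 to 2523 CPM and in PP cells from 2054 to 3014 CPM. The ranges of β and α cells overlapped, and within each library the α-cell value was the higher. The log2 difference of -0.22 between β and α cells (SE 0.20, adjusted p = 0.404) did not pass edgeR's quasi-likelihood test after Benjamini-Hochberg adjustment, although it passed in the other 3 scalings, with values down to -1.01. Against δ and PP cells the values of 0.37 and 0.22 had the opposite sign in the other 3 scalings. With CPM of all UMIs Pcsk2 was called lower in β cells, at -1.03 against δ and -0.62 against PP cells. Pcsk2 was also not called between α and δ cells (0.58, SE 0.20, adjusted p = 0.0607, edgeR quasi-likelihood).

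Setting the convertases against each other within a cell class needs no scaling. In β cells there were 58.7 Pcsk1 UMIs for each 1000 Pcsk2 UMIs in mutant 1 (95% exact interval 54.5 to 63.2), 58.1 in mutant 2 (54.0 to 62.4) and 87.1 in control 2 (84.6 to 89.7). In α cells the ratios were 6.18 (3.08 to 11.1), 3.03 (1.21 to 6.24) and 6.10 (2.23 to 13.3). In every library the β-cell interval lay above that of α cells. In δ cells the ratios were 8.20, 20.4 and 10.9, and in PP cells 5.38, 7.14 and 7.45, with intervals that overlapped those of α cells of the same library except for δ cells of mutant 2 (6.57 to 48.3 against 1.21 to 6.24). The β-cell ratio of control 2 lay above both mutant values, whose intervals overlapped each other.

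**Figure D2:**
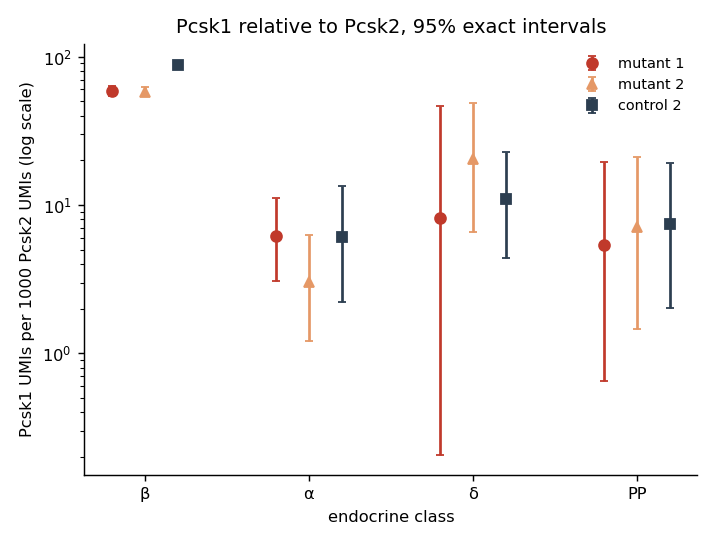
Pcsk1 UMIs per 1000 Pcsk2 UMIs on a log axis for β, α, δ and PP cells (x axis), 1 point per library with 95% exact binomial intervals that cover counting error only. The β-cell points (58.1 to 87.1) lie above all others, and the widest intervals belong to δ cells, which had 1 to 7 Pcsk1 UMIs.

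Cpe, which removes the basic residues after convertase cleavage, was highest in β cells and lower in the others. It ranged from 4904 to 5778 CPM in β cells, 2476 to 4113 CPM in α cells, 1847 to 2717 CPM in PP cells and 1493 to 2090 CPM in δ cells. The β-cell values lay above all others, whereas the PP-cell range overlapped those of α and δ cells. The log2 difference was 0.65 (SE 0.21, adjusted p = 0.0147) against α, 1.56 (SE 0.22, adjusted p = 4.23e-06) against δ and 1.19 (SE 0.21, adjusted p = 0.000115) against PP cells by edgeR's quasi-likelihood test. The call against α cells was made in 2 scalings and the sign turned with CPM of all UMIs (-0.14), while the other calls were made in 3 scalings. It was also lost without mutant 2, at 0.74.

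The genes of the partner proteins differed in how far they followed their convertases. Between β and α cells Pcsk1n had the opposite sign to Pcsk1. Scg5 had the same sign there as Pcsk2 (log2 difference -0.22 for Pcsk2), neither being called with TMM. Between β and PP cells the signs of Scg5 (-0.36) and Pcsk2 (0.22) differed, again with neither called with TMM. Pcsk1n, the gene of the PC1/3 inhibitor proSAAS, was lower in β than in α cells (log2 difference -0.70, SE 0.21, adjusted p = 0.0105, edgeR quasi-likelihood), and this held in all 4 scalings. In β cells it had 307, 398 and 1363 CPM in mutant 1, mutant 2 and control 2, and in α cells 600.2, 893 and 1403 CPM. The α-cell value was the higher in each library, and in control 2 the difference was small, at -0.044. Without mutant 1 the value was -0.59 and without mutant 2 it was -0.48, neither called. Scg5, the PC2 chaperone, had 200.3, 226 and 874 CPM in β cells and 403, 429 and 645 CPM in α cells. In the mutant libraries the α cells were the higher and in control 2 the β cells, and the log2 difference of -0.47 (SE 0.24, adjusted p = 0.125, edgeR quasi-likelihood) was not called with TMM or DESeq2. It was called with CPM of all UMIs (-1.26) and without hormone and mitochondrial genes (-0.72), as was the difference from PP cells (-0.36 with TMM, -1.23 and -0.72 with these 2). Without control 2 it was -0.97 and was called. Against δ cells both genes had values of 0.37, not called, with the opposite sign in the other 3 scalings. With CPM of all UMIs both were called lower in β cells, at -1.03 for Scg5 and -1.02 for Pcsk1n.

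The granins divided the classes differently from one another. Chga was highest in β cells except with CPM of all UMIs, Scg2 and Scg3 were higher in β than in α cells, and Chgb was low in α cells and high in δ cells. Scg2, the secretogranin II precursor, had 1495, 1973 and 6753 CPM in β cells, in the order given for Pcsk1, and 343, 354 and 758 CPM in α cells. In δ cells it had 857, 1099 and 1576 CPM. The β cells were above the α cells in each library, by a log2 difference of 2.62 (SE 0.24, adjusted p = 1.28e-09, edgeR quasi-likelihood), called in all 4 scalings. The difference from PP cells, 1.98 (SE 0.24, adjusted p = 3.25e-07), also held in all 4. That from δ cells, 1.30 (SE 0.24, adjusted p = 0.000154), held in 3 and turned with CPM of all UMIs (-0.10). Scg2 was lower in α than in δ cells by 1.32 (log2 difference -1.32, SE 0.24, adjusted p = 0.000424) in all 4 scalings, and the call was lost without mutant 2, at -1.16.

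Chgb, the gene of chromogranin B, had 697, 767 and 2651 CPM in β cells and 561, 489.8 and 524 CPM in α cells. In δ cells it had 1457, 1663 and 1996 CPM and in PP cells 779, 748 and 836 CPM. The δ-cell values exceeded all α-cell and PP-cell values, while those of β cells ran from below the PP-cell range to above the δ-cell range. Chgb was lower in α than in δ cells (log2 difference -1.65, SE 0.29, adjusted p = 0.00021, edgeR quasi-likelihood) and higher in δ than in PP cells (1.09, SE 0.29, adjusted p = 0.0202), in all 4 scalings. The δ to PP call was lost without mutant 2, at 1.06. Between β and δ cells the difference was -0.48 with TMM (SE 0.28, adjusted p = 0.199, edgeR quasi-likelihood), not called, and it was called lower in β cells in the other 3 scalings, with values down to -1.90. Between β and α cells the difference of 1.17 (SE 0.28, adjusted p = 0.00151) was called in 3 scalings and was uneven among libraries, at 0.31 in mutant 1, 0.64 in mutant 2 and 2.33 in control 2.

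Chga, the gene of chromogranin A, fell into steps across the classes. It had 13523, 11706 and 7982 CPM in β cells and 8528, 7372 and 4568 CPM in α cells. In PP cells it had 3904, 3131 and 2020.5 CPM, and in δ cells 2486, 2708 and 2141 CPM. The α-cell and β-cell ranges overlapped because control 2 was the lowest library in each, yet β exceeded α cells within every library. The differences of β cells from δ cells (2.13, SE 0.24, adjusted p = 1.36e-07) and PP cells (1.89, SE 0.23, adjusted p = 5.28e-07) and of α cells from δ cells (1.42, SE 0.23, adjusted p = 0.000106) and PP cells (1.18, SE 0.23, adjusted p = 0.0033) were called in all 4 scalings by edgeR's quasi-likelihood test or its DESeq2 counterpart. The difference between β and α cells, 0.71 (SE 0.23, adjusted p = 0.014), was called in 3 and turned with CPM of all UMIs (-0.073). Without mutant 2, neither it (0.73) nor the α to PP difference (1.15) was called. Scg3, a granin that binds chromogranin A, ranged from 888 to 1853 CPM in β cells and from 415 to 454 CPM in α cells. It was higher in β than in α cells by 1.35 (SE 0.21, adjusted p = 1.4e-05, edgeR quasi-likelihood) in all 4 scalings. Its differences from δ cells (1.60, SE 0.24, adjusted p = 1.14e-05) and PP cells (1.17, SE 0.22, adjusted p = 0.000223) were called in 3.

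Slc30a8, the zinc transporter of the granule, separated β and α cells from the others. It had 412, 486 and 424 CPM in β cells and 309, 429 and 448 CPM in α cells. In δ cells it had 51.4, 45.4 and 23.6 CPM, on 3 to 6 UMIs, and in PP cells 93.9, 90.5 and 140.3 CPM. The β and α ranges overlapped and both lay above all δ and PP values. The log2 difference was 3.74 (SE 0.33, adjusted p = 2.59e-09) between β and δ, 2.02 (SE 0.24, adjusted p = 2.9e-07) between β and PP, 3.57 (SE 0.34, adjusted p = 2.36e-08) between α and δ, and 1.85 (SE 0.25, adjusted p = 3.71e-05) between α and PP cells by edgeR's quasi-likelihood test, all held in 4 scalings. δ cells were also lower than PP cells (-1.72, SE 0.41, adjusted p = 0.00876), a call made in 3 scalings and lost without control 2, at -1.02. Between β and α cells the value of 0.17 (SE 0.19, adjusted p = 0.481) was not called and had the opposite sign in 2 scalings. With CPM of all UMIs, 1 of these 2, Slc30a8 was called lower in β cells (-0.60).

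Between the non-β classes, 4 genes were called higher and 2 lower in α than in δ cells, where 8.96% and 3.83% of all genes were called. Cpe (0.91) and Pcsk1n (1.07), both called higher in α cells, kept the call in 2 and 3 scalings, and both lost it without mutant 2. Cpe lost it without mutant 1 as well, at 0.81. Against PP cells, α cells were higher for Chga and Slc30a8 and lower for 0 (2.06% and 0.694% of all genes). δ cells were higher than PP cells for Chgb and lower for Slc30a8 (2.99% and 3.22% of all genes), and Scg2 (0.68 with TMM, not called) was called higher in δ cells in the other 3 scalings. Leaving out control 2 raised the count from 2 to 7 between α and PP cells, where calls over all genes went from 131 of 4752 to 338 of 6504. Without mutant 2 the counts were 4 between β and α, 3 between α and δ, 1 between α and PP and 1 between δ and PP cells. Calls over all genes fell there as well, to 891, 246, 34 and 132 of 4909 from 1835, 608, 131 and 295 of 4752. DESeq2 called 1 of the 10 lower in β than in δ cells and 0 lower in β than in PP cells or in α than in PP cells, where edgeR had called 0 in each. At an unadjusted p below 0.05 edgeR's counts for these were 0, 0 and 1.

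Other genes of the pathway were taken from 4 lists. Among 15 other convertases and processing enzymes, 6 were abundant enough to test and 0 were called in any of the 6 class comparisons by edgeR with TMM. Over the 6, edgeR had 2 results at an unadjusted p below 0.05, and DESeq2 called 1, lower in β than in PP cells. With CPM of all UMIs 5 genes were tested, and 3, 4 and 2 were lower and 0 higher in β than in α, δ and PP cells. That scaling called 2174, 2382 and 1535 of all 4275 genes lower and 296, 97 and 210 higher. Without hormone and mitochondrial genes 7 were tested, with 1 higher and 1 lower against α cells, 0 and 0 against δ cells and 1 and 1 against PP cells. Pam, which amidates peptide ends, had a log2 difference of -0.17 (SE 0.26) between β and α cells, and furin (Furin), the convertase of the constitutive pathway, 0.63 (SE 0.27, adjusted p = 0.0637, edgeR quasi-likelihood). Of 17 genes of granule membrane, cargo and biogenesis, 12 were tested, and 6 were higher and 1 lower in β than in α cells. Their median was 0.52 against 0.21 for all genes. With CPM of all UMIs 10 were tested, and 1 was higher and 4 lower. The median was then -0.27 against -0.59 for all genes. Both directions occurred among the granule phosphatase-like proteins, with Ptprn higher (0.79, SE 0.22, adjusted p = 0.00545) and Ptprn2 lower (-0.64, SE 0.20, adjusted p = 0.013) in β cells, but with CPM of all UMIs Ptprn stood at 0.0073. Of 18 zinc transporters other than Slc30a8, 3 were tested, and Slc39a7, which releases zinc from the endoplasmic reticulum, was higher in β cells (1.19 against α cells, SE 0.21, adjusted p = 4.7e-05). With CPM of all UMIs its value against α cells was 0.41, and 0 of the zinc transporters were called there. Of 21 V-ATPase genes, whose pump acidifies the granule, 17 were tested. Of these, 11 were higher and 0 lower in β than in α cells, 8 and 0 against δ cells and 9 and 0 against PP cells. Of all genes 26.3%, 24.7% and 23.7% were higher there. With CPM of all UMIs 16 were tested, and the counts were 1 higher and 3 lower, 0 and 8, and 1 and 2. Their medians were then -0.18, -0.65 and 0.064, above the -0.59, -0.97 and -0.57 of all genes. DESeq2 called 7, 4 and 6 higher and 0 lower. Without hormone and mitochondrial genes 7, 1 and 6 were higher. In these 3 comparisons 0 were lower at an unadjusted p below 0.05 with either tool. Atp6v0c (1.10, SE 0.19, adjusted p = 5.53e-05) and Atp6ap2 (1.32, SE 0.20, adjusted p = 7.48e-06) were examples against α cells. Both values stayed positive in all 4 scalings. With CPM of all UMIs they were 0.35 and 0.55, and only 1 V-ATPase gene was called higher there. The median of the V-ATPase genes against α cells was 0.62, beside 0.21 for all genes.

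By the likeness of log2 CPM over the 12 sums, among 2845 genes, Pcsk1 was most like Gng12 (Pearson r 0.96), Hsp90b1 (0.93) and Insm1 (0.93). Pcsk2 was most like Slc7a8 (0.94), Zcchc18 (0.92) and Pabpc1 (0.88), and Slc30a8 was most like Sphkap (0.97), Slc3a2 (0.94) and Skap1 (0.93). The sums of a library share its depth, and those of a class share their cells, so the points are not independent.

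The second comparison set the libraries labelled mutant against control 2 in β cells. Granule genes did not move together. Pcsk1, Scg5, Pcsk1n, Chgb, Scg2 and Scg3 were lower in both mutant libraries by more than 0.5 on the log2 scale, Chga was higher, by 0.65 and 0.44, and Pcsk2, Cpe and Slc30a8 differed less. A gene was called when both log2 ratios passed 0.5 in the same direction. By that rule 6 of the 10 were lower and 0 higher, where 32.1% of 4760 genes were lower and 14.5% higher and the median ratios of all genes were -0.20 and -0.21. Of all called genes, 68.9% were lower with TMM, 63.9% with DESeq2 size factors, 22.8% with CPM of all UMIs and 56.8% without hormone and mitochondrial genes. With 1 control library these ratios describe 3 libraries and not the genotypes. Their directions also rest on the labels, which were not tested.

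**Figure D3:**
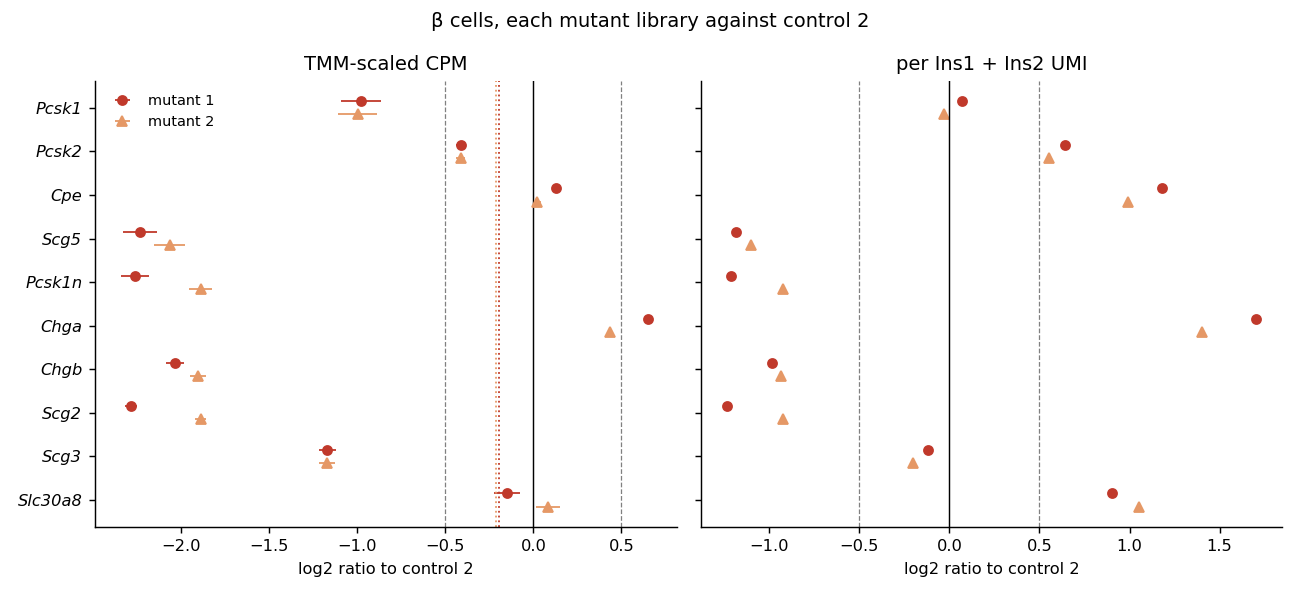
log2 ratio of mutant 1 and mutant 2 to control 2 in β cells (x axis) for each gene, as TMM-scaled CPM with 95% exact intervals (left) and per insulin UMI (right). Dashed lines mark 0.5 in each direction and dotted lines the medians of all genes. Scg5, Pcsk1n, Chgb and Scg2 lie to the left in both panels and Chga to the right.

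In β cells, Scg5 had 942 UMIs (mutant 1), 1133 (mutant 2) and 14722 (control 2), and its log2 ratios to control 2 were -2.24 and -2.07. Pcsk1n, the other small regulator, had 1442, 1996 and 22951 UMIs and ratios of -2.26 and -1.89. The gaps between the mutant libraries, 0.17 and 0.37, were small beside these ratios. Among the granins, Chgb had ratios of -2.04 and -1.90, Scg2 of -2.29 and -1.89 and Scg3 of -1.17 and -1.17. Chga had the opposite sign, at 0.65 and 0.44, so that only mutant 1 passed 0.5 with TMM. Pcsk1 had ratios of -0.978 and -0.998 and Pcsk2 of -0.41 and -0.41. Cpe (0.13 and 0.022) and Slc30a8 (-0.15 and 0.084) lay within 0.2 of control 2. With CPM of all UMIs the mean ratios were higher, at 0.66 for Cpe, 0.55 for Slc30a8 and 0.17 for Pcsk2, and that of Pcsk1 was -0.40, short of 0.5.

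The depth of the cells moved with these ratios. In β cells of 3000 to 6000 UMIs (826, 618 and 308 cells), the mean depths were 4171, 4515 and 4246 UMIs. In control 2 these were 308 of 2072 β cells and lay far below its median depth, whereas the range held the median of mutant 2 and lay just above that of mutant 1. There the ratios were -1.34 and -1.38 for Scg5, -1.29 and -1.04 for Pcsk1n, -1.28 and -1.27 for Chgb and -1.32 and -1.16 for Scg2. These 4 genes stayed past 0.5. Pcsk1 shrank to -0.23 and -0.18 and Scg3 to -0.40 and -0.53, neither called, while Cpe (0.76 and 0.58) and Chga (1.06 and 0.86) were called higher. In those cells 1351 of 5100 genes were higher and 907 lower, with median ratios of 0.13 and 0.11. Over the main setting and 11 alternatives the mean ratio of the mutant libraries spanned -2.16 to -1.36 for Scg5, -2.08 to -1.16 for Pcsk1n, -1.99 to -1.27 for Chgb and -2.09 to -1.24 for Scg2. For Chga it spanned 0.54 to 1.13. With all β cells thinned to 1000 UMIs, a Scg2 UMI was seen in 56.2% and 63.7% of cells of the mutant libraries and 92.0% of control 2, and a Scg5 UMI in 11.3%, 14.3% and 31.9%. Unthinned, the shares were 76.1%, 86.1% and 99.9% for Scg2 and 29.2%, 43.2% and 92.5% for Scg5. In non-endocrine cells of the 3 libraries Scg2 was seen in 11.1%, 6.0% and 14.3%.

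Relative to insulin transcripts, which these proteins process or store, the picture was divided. Per 1000 Ins1 and Ins2 UMIs, β cells had 0.257, 0.239 and 0.244 Pcsk1 UMIs in mutant 1, mutant 2 and control 2. The 95% exact intervals of these values overlapped (0.239 to 0.276, 0.223 to 0.256 and 0.237 to 0.251), and the log2 ratios to control 2 were 0.073 and -0.030. Pcsk2 stood at 4.37, 4.12 and 2.80 UMIs per 1000 insulin UMIs and Cpe at 9.26, 8.13 and 4.09. Both were higher in the mutant libraries, by 0.64 and 0.55 for Pcsk2 and 1.18 and 0.99 for Cpe. Slc30a8 had 0.661, 0.733 and 0.354 UMIs per 1000 insulin UMIs, and Chga 21.7, 17.6 and 6.66. The log2 ratios of Chga were 1.70 and 1.40. Scg5 (-1.18 and -1.10), Pcsk1n (-1.21 and -0.92), Chgb (-0.99 and -0.94) and Scg2 (-1.23 and -0.92) remained lower, and Scg3 stood at -0.12 and -0.20. In all, 4 of the 10 were called higher and 4 lower, where 61.4% of all genes were higher and 6.41% lower and the medians were 0.86 and 0.76. In β cells of 3000 to 6000 UMIs the median moved to -0.11 and -0.064. There Chga alone was called higher (0.81 and 0.69) and 5 were lower, where 934 of 5100 genes were higher and 1245 lower. Pcsk2 turned to -0.23 and -0.15 and Pcsk1 stood at -0.48 and -0.35.

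In α cells of the same libraries, where ratios were computed with TMM only, Chgb and Scg3 stood near control 2. In α cells Chgb had log2 ratios of 0.080 and -0.11 (95% exact intervals -0.22 to 0.39 and -0.41 to 0.19) and Scg3 of 0.11 and 0.089, so neither was separated from control 2. Taking all β cells, both lay at -1.17 or below. The median ratios of all genes were 0.10 and 0.11 in α cells and -0.20 and -0.21 in β cells. The α cells of control 2 were also deeper, at a median of 6472 UMIs against 1784 in mutant 1 and 2899 in mutant 2. No α-cell ratio was computed in a fixed range of depth. Scg2 (-1.16 and -1.11), Pcsk1n (-1.24 and -0.66) and Scg5 (-0.69 and -0.60) were lower in α cells too, by less than in all β cells in each library. Beside β cells of 3000 to 6000 UMIs the gap was narrower for Scg2 (-1.32 and -1.16 in β cells), Pcsk1n (-1.29 and -1.04) and Scg5 (-1.34 and -1.38). It was also narrower for Scg3 (-0.40 and -0.53 in those β cells, not called) and for Chgb (-1.28 and -1.27). Cpe (0.71 and 0.63) and Chga (0.88 and 0.68) were higher. As CPM of all UMIs in mutant 1, mutant 2 and control 2, Scg2 had 342, 360 and 795 in α cells. In non-endocrine cells it had 233, 136 and 261, a background not subtracted from these ratios. Pcsk1n had 598, 907 and 1472 in α and 91.3, 48.0 and 149 in non-endocrine cells, and Scg5 401, 435 and 677 against 20.3, 48.0 and 75.5. Control 2 had 35 α cells, against 298 and 220 in the mutant libraries, and the difference between classes was not tested, since it rests on 1 control library.

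**Figure D4:**
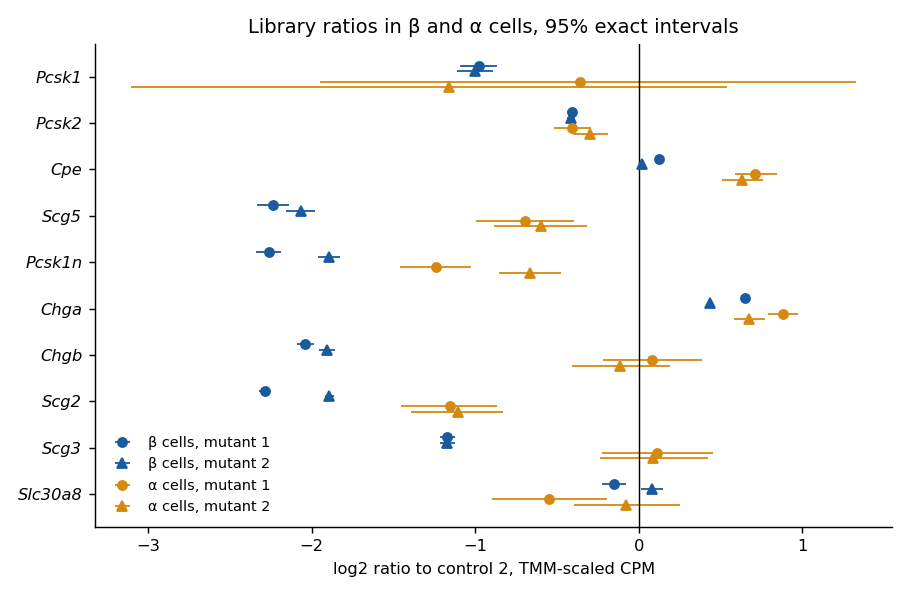
log2 ratio of mutant 1 and mutant 2 to control 2 (x axis, TMM-scaled CPM) for each gene in β cells (blue) and α cells (orange), with 95% exact intervals that cover counting error only. Chgb and Scg3 lie near 0 in α cells and at -1.17 or below in all β cells. In β cells of 3000 to 6000 UMIs, not drawn, Scg3 stood at -0.40 and -0.53.

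In δ and PP cells, also with TMM only, Scg2 was below control 2, at -1.02 and -0.58 in δ and -1.48 and -1.002 in PP cells. Pcsk1n stood at -1.59 and -1.20 in δ and -1.35 and -0.51 in PP cells. These 2 genes had negative ratios in both mutant libraries in all 4 classes, as did Scg5 and Pcsk2 with TMM, although for Pcsk2 in β cells the mean ratio turned to 0.31 when levels were averaged over cells. The median ratios of all genes were -0.41 and -0.13 in δ cells and 0.034 and 0.032 in PP cells. Pcsk2 in δ cells (-0.42 and -0.24) and Scg5 there in mutant 1 (-0.48) lay near the δ-cell medians. The δ-cell values of Pcsk1n rested on 17, 40 and 205 UMIs. Median depths in mutant 1, mutant 2 and control 2 were 1255, 2341 and 5177 UMIs in δ cells and 2358, 3311 and 7319 in PP cells. These ratios were corrected neither for depth nor for transcripts carried over from β cells.

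Among the other genes of the pathway in β cells, Pam was lower in both mutant libraries (-1.95 and -1.96) and Atp6v0c was higher (1.01 and 0.93). Furin stood at 0.017 and 0.074. Of the V-ATPase genes 6 of 17 were lower and 1 higher, of the granule membrane, cargo and biogenesis genes 5 of 13 lower and 1 higher, of the zinc transporters 2 of 4 lower and 0 higher, and of the other processing enzymes 3 of 6 lower and 1 higher. By the same rule 32.1% of all genes were lower and 14.5% higher, and the V-ATPase and granule membrane counts lay near those shares.

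The last comparison looked within β cells. In each library the cells were ordered by their insulin share of UMIs and cut into 3 equal parts, and the insulin-poorest part was set against the insulin-richest. Scg2 had the steepest difference in every library. Per 10000 non-insulin UMIs, its level was 8.24 in the poorest and 24.7 in the richest cells of mutant 1. It was 10.2 and 33.2 for mutant 2, and 54.4 and 90.4 for control 2. The log2 ratios of richest to poorest were 1.58, 1.70 and 0.73. Pcsk1n (1.04, 1.02 and 0.67), Scg5 (0.76, 0.62 and 0.58) and Pcsk1 (0.57, 0.67 and 0.53) were also higher in the insulin-rich cells of each library. So were Slc30a8 (0.38, 0.35 and 0.42), Scg3 (0.58, 0.78 and 0.13) and Cpe (0.36, 0.27 and 0.060). The same ratio over all genes was not computed. Chgb was higher in the insulin-rich cells of the mutant libraries (0.50 and 0.52) and lower in those of control 2 (-0.32). Pcsk2 had the reverse pattern, at -0.18 and -0.068 in the mutant libraries and 0.53 in control 2. Insulin-rich cells were also deeper, with median UMIs of 3765 against 1384 for mutant 1, 6219 against 1966 for mutant 2 and 23343 against 6879 for control 2. After thinning of every cell to 1000 UMIs the Scg2 ratios were 1.47, 1.59 and 0.95, and in control 2 Chgb came to -0.0055 and Chga to -0.036. Pcsk1 in mutant 1 came to 0.18, on 66 and 55 UMIs, with 0.70 and 0.69 in the other libraries.

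**Figure D5:**
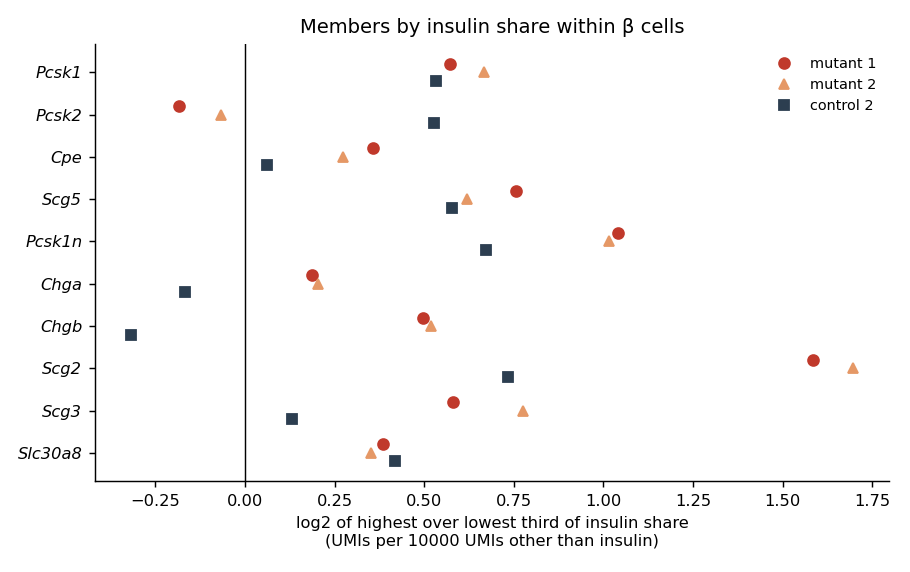
log2 ratio of the level in the insulin-richest to that in the insulin-poorest of 3 equal parts of the β cells (x axis, UMIs per 10000 UMIs other than insulin), 1 point per library. Scg2 lies furthest right in every library (0.73 to 1.70), and for Pcsk2, Chga and Chgb control 2 lies on the other side of 0 from both mutant libraries.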

How the data were processed

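Per the labels, dissociated mouse islet cells were profiled with PIPseq, and the submitters' processing notes name GRCm39 and Seurat. By the methods, DropEst made the count matrices. The authors deposited raw UMI counts as whole numbers, by gene and cell, for 3 libraries (8448466, 9013499 and 36985253 UMIs), which set the counting precision. Cells with under 500 UMIs, under 100 genes or over 10% mitochondrial UMIs were removed, and doublets were not called. α, δ and PP cells needed their own hormone above every other, and β cells needed Gcg, Sst and Ppy each under 2% of UMIs. Counts were summed per library and class (at least 10 cells) and fitted in edgeR 4.0.16 (R 4.3.3; filterByExpr, TMM, glmQLFit, glmQLFTest, terms for class and library, 6 residual degrees of freedom), hormone genes left out of the tests. The spread is that between 3 libraries of pooled islets, 2 mutant and 1 control. Library ratios used TMM-scaled CPM with a prior count of 1 and genes of at least 20 CPM. DESeq2 1.42.0, other scalings, filters, depths and class rules, and leaving out each library, were alternatives. Scripts were tested on simulated data. Intervals cover counting error only. The mutant libraries differed by more than sampling noise (chi-square per degree of freedom 4.47 over 15057 genes). The 10 genes, the lists and the tests were chosen with earlier results of these data known. Besides the 10 genes and the hormones, up to 4 genes per list with the highest mean CPM were named, and for Pcsk1, Pcsk2 and Slc30a8 the 3 most alike (mean of at least 50 CPM).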

Additional observations from a re-analysis of the deposited data

Results flagged for a closer look

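Several class differences lay on opposite sides of 0 in the mutant libraries and in control 2. None of these was tested, because 1 control library holds the other side. Scg5 was higher in β than in α cells of control 2 (log2 difference 0.43) and lower in mutant 1 (-1.01) and mutant 2 (-0.93), and between β and PP cells it stood at 0.26 against -0.53 and -0.99. Pcsk1n between β and PP cells stood at 0.54 in control 2 against -0.32 and -0.78. Chgb between β and δ cells stood at 0.41 in control 2 against -1.07 and -1.12. Chga between δ and PP cells stood at 0.083 against -0.65 and -0.21, Scg3 between α and δ cells at -0.34 against 0.78 and 0.28, and Slc30a8 between β and α cells at -0.086 against 0.41 and 0.18.

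Pcsk2, Chga and Chgb differed in sign between libraries in the comparison of the insulin-richest with the insulin-poorest of 3 equal parts of the β cells, also untested. In control 2 Pcsk2 had 0.53, Chga -0.17 and Chgb -0.32, where the mutant libraries had -0.18 and -0.068, 0.19 and 0.20, and 0.50 and 0.52. After thinning to 1000 UMIs, the control 2 values of Chga and Chgb came near 0, at -0.036 and -0.0055, and that of Pcsk2 was 0.47.

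The value of the ratio of the mutant libraries to control 2 changed sign between classes for Scg3 and Slc30a8, untested as well. For Slc30a8 the change was not separated from counting error. The Scg3 intervals in α cells spanned 0 (-0.22 to 0.45 and -0.24 to 0.42). They lay above those in all β cells (-1.22 to -1.12 and -1.22 to -1.13). The mean Scg3 ratio of the mutant libraries was 0.10 in α cells, with both libraries negative in β cells, and it was -0.88 in δ and -0.47 in PP cells. The mean Slc30a8 ratio was 0.76 in δ cells and -0.65 in PP cells, with both libraries negative in α cells. In δ cells it rested on 3, 5 and 6 UMIs and in PP cells on 17, 15 and 25. Its intervals spanned 0 in δ cells (-1.65 to 3.20 and -1.17 to 2.86) and in PP cells (-1.64 to 0.29 and -1.73 to 0.28).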

How the results depend on the processing

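Of the class differences named for single genes, called or not, the scaling ended or turned several, as given beside them. Among those whose sign turned, Cpe and Chga between β and α cells and Scg2 between β and δ cells had been called with TMM, and the others had not. Signs opposite to the main value came with CPM of all UMIs for Cpe (-0.14), Chga (-0.073) and Slc30a8 (-0.60) between β and α cells, Pcsk2 (-1.03), Scg5 (-1.03), Pcsk1n (-1.02) and Scg2 (-0.10) between β and δ cells, Pcsk2 (-0.62) and Chgb (-0.27) between β and PP cells, and Pcsk2 (-0.023) and Scg3 (-0.37) between α and δ cells. Without hormone and mitochondrial genes they came for Slc30a8 (-0.074) between β and α cells, Pcsk2 (-0.31), Scg5 (-0.24) and Pcsk1n (-0.24) between β and δ cells, Pcsk2 (-0.13) between β and PP cells and Scg3 (-0.14) between α and δ cells. With DESeq2 they came for Pcsk2 (-0.0058), Scg5 (-0.073) and Pcsk1n (-0.0034) between β and δ cells and Pcsk2 (-0.082) between β and PP cells. Among these turned values, only some with CPM of all UMIs were called. They were Slc30a8 between β and α cells, Pcsk2, Scg5 and Pcsk1n between β and δ cells and Pcsk2 between β and PP cells. Pcsk1n between β and PP cells turned to 0.21 after thinning to 1000 UMIs. Leaving out a library, the β to PP difference spanned -0.57 (without control 2) to 0.16 (without mutant 2) for Pcsk1n and -0.055 (without control 2) to 0.93 (without mutant 1) for Chgb, the β to δ difference of Scg5 -0.12 (without control 2) to 0.70 (without mutant 1), and the α to δ difference of Pcsk1 -1.33 (without control 2) to 0.046 (without mutant 2). Per insulin transcript, Pcsk2 turned to a mean of -0.19 in β cells of 3000 to 6000 UMIs.

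The number of the 10 genes called became 4 between β and α cells and 1 between δ and PP cells after thinning to 1000 UMIs, where 9 were tested. It became 4 between α and PP cells with hormone minimums of 10% and 20%, and 1 between δ and PP cells with a minimum of 2% and insulin under 10%, an alternative chosen after seeing the data. Leaving out each library in turn gave 4 to 9 genes between β and α, 6 to 7 between β and δ, 6 to 8 between β and PP, 3 to 8 between α and δ, 1 to 7 between α and PP and 1 to 2 between δ and PP cells. After thinning only 958 genes were tested, against 4752 in the main setting, so the counts over all genes have different totals. Of the 958, 468, 477 and 432 were called for β against α, δ and PP cells. Between α and δ cells 251 were called, between α and PP cells 79 and between δ and PP cells 57. Between β and δ cells there were 781 calls with DESeq2, 2479 with CPM of all UMIs and 905 without hormone and mitochondrial genes, and between δ and PP cells 480 with CPM of all UMIs. Leaving out a library gave 891 to 3148, 725 to 1232, 728 to 1734, 246 to 707, 34 to 338 and 132 to 330 calls in the 6 comparisons in that order. With hormone minimums of 10% and 20% the mutant libraries had 3 and 4 δ cells and control 2 had 18, and with a 4-fold minimum each library had 3 or fewer, so no comparison with δ cells was made in either setting.

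For library ratios in β cells, the genes of the set called higher numbered 1 with DESeq2 size factors, without hormone and mitochondrial genes or after thinning, and 2 with CPM of all UMIs, in cells of 3000 to 6000 UMIs or as a mean over cells. Over all genes, those lower and higher were 1526 and 688 of 4760 in the main setting and 4379 and 2344 of 13689 with a filter of 1 CPM. They became 578 and 1954 with CPM of all UMIs, 907 and 1351 in cells of 3000 to 6000 UMIs and 661 and 1748 as a mean over cells. Those higher became 1357 of 7146 genes without hormone and mitochondrial genes and 1045 of 4952 after thinning. Using either mutant library alone gave 6 lower and 0 to 1 higher of the set, 1652 to 1702 genes lower and 741 to 874 higher. Per insulin transcript, the set had 1 higher, and all genes 1245 lower and 934 higher, in cells of 3000 to 6000 UMIs, and 135 genes were lower per Ins1 transcript. Using either mutant library alone gave 4 lower and 4 higher of the set, 332 to 383 genes lower and 3033 to 3151 higher. The mean of Pcsk1 per 1000 Pcsk2 UMIs in PP cells became 4.68 with higher hormone minimums, 4.55 with a 4-fold minimum and 2.65 after thinning. Leaving out each library gave 58.4 to 72.9 in β, 4.56 to 6.14 in α, 9.55 to 15.7 in δ and 6.26 to 7.30 in PP cells.

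No paired analysis was possible because the groups compared share only 1 replicate number with counts, mutant 2 and control 2. Depth limits Pcsk1 outside β cells and Slc30a8 in δ cells, which rest on 1 to 11 UMIs per sum, and the comparison of libraries rests on 1 control library that is also the deepest.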

Other observations

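Iapp, the gene of amylin, which is stored in the same granule as insulin and trimmed by the same enzymes, followed Chga in the β-cell libraries. It had 209, 172 and 74.0 UMIs per 1000 insulin UMIs in mutant 1, mutant 2 and control 2, with log2 ratios of 1.497 and 1.22 to control 2. On this scale 61.4% of all genes were called higher, with medians of 0.86 and 0.76. Those medians moved to -0.11 and -0.064 in β cells of 3000 to 6000 UMIs, for which no Iapp value is given.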
